A study of Caenorhabditis elegans with 10 samples.

Results

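The C-type lectin genes of the nematode C. elegans, named clec, were followed through 8 peak lists of 3 transcription factors. The members are the 239 protein-coding genes whose symbol starts with clec- in a gene table of the assembly WBcel235, out of 19971 protein-coding genes on the nuclear chromosomes. A further 25 clec entries of that table are not protein-coding and were not used. C-type lectins carry a fold that binds sugars in many animals, often with calcium. In C. elegans the family is strongly expanded, many members are secreted or sit in membranes, and a subset is known for changing expression in infected animals, often in the intestine. Most members have no assigned function.

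The study used ChIP-seq, in which chromatin carrying a chosen protein is immunoprecipitated and its DNA is sequenced, in whole animals at day 1 of adulthood. CEH-60 is a PBX-family homeodomain protein, UNC-62 is a MEIS-family homeodomain protein, and PQM-1 carries zinc fingers. Strain DLS395, of genotype ceh-60(rhd116), gave a CEH-60 list with the anti-HA antibody 3F10 in replicates 1 and 2 and a list with the anti-HA antibody mIgG1. Strain DLS396, of genotype ceh-60(rhd116); gaIs285, gave a CEH-60 list with 3F10 and an UNC-62 list with the anti-GFP antibody 3E6. PQM-1 was recovered with the anti-FLAG antibody M2 from OP201, of genotype unc-119(tm4063); wgIs201, and from DLS422, of genotype ceh-60(ok1485); wgIs201. CEH-60 was also recovered with 3F10 from DLS435, of genotype pqm-1(ok485); ceh-60(rhd116). No list came from a strain without the allele or transgene through which its factor was recovered. Replicate 1, mIgG1 and both DLS396 libraries were crosslinked with 2% formaldehyde for 30 min, and replicate 2, DLS435 and both PQM-1 libraries with 1% for 5 min. Only CEH-60 in DLS395 with 3F10 had 2 libraries, and these differ in crosslinking, so no comparison has a test and no p-value is given. Read depth is unknown, and the lists held between 2048 nuclear peaks (CEH-60 in DLS435) and 9008 (CEH-60 replicate 1).

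A gene is called bound where the summit of a peak lies from 1000 bp outside to 200 bp inside either end of the gene, since strand was not used. Each peak has a fold enrichment, the authors' own ratio of the signal at its summit to the local background. It describes a peak within its list and is not compared between lists. A gene's fold is that of its strongest peak at a gene end. Peak positions are printed 1-based, with 1 added to each deposited start, and the sources used here name no genome build for them.

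Between 15 and 75 of the 239 clec genes were bound, depending on the list. CEH-60 replicate 1 bound 75 (31.4%, 95% Wilson interval 25.8 to 37.5%), where 25.2% of all protein-coding genes were bound. The mIgG1 library bound 34 (14.2%, 10.4 to 19.2%) against 12.8% of all genes, and CEH-60 in DLS396 bound 69 (28.9%, 23.5 to 34.9%) against 25.5%. The clec share was 1.25, 1.11 and 1.13 times that of all genes in these lists, and the intervals of the mIgG1 and DLS396 lists contained the share of all genes. UNC-62 bound 15 clec genes (6.28%, 3.84 to 10.1%), nearly the same share as among all genes (6.18%). With a window of 2000 bp outside the gene the clec share fell below that of all genes for mIgG1 (18.4% against 18.8%), DLS396 (33.9% against 34.8%) and UNC-62 (7.95% against 9.34%).

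PQM-1 bound 61 clec genes in OP201 (25.5%, 20.4 to 31.4%), where 16.9% of all genes were bound, and 56 in DLS422 (23.4%, 18.5 to 29.2%), where 13.4% were. CEH-60 replicate 2 bound 31 (13.0%, 9.29 to 17.8%) against 9.66%, and CEH-60 in DLS435 bound 21 (8.79%, 5.82 to 13.1%) against 5.44%. The clec share was 1.51 and 1.75 times that of all genes in the PQM-1 lists, 1.34 times in replicate 2 and 1.61 times in DLS435. The interval of replicate 2 contained the share of all genes. The intervals cover counting error only, and they take the genes as separate, which neighbours that share a peak are not.

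**Figure D1:**
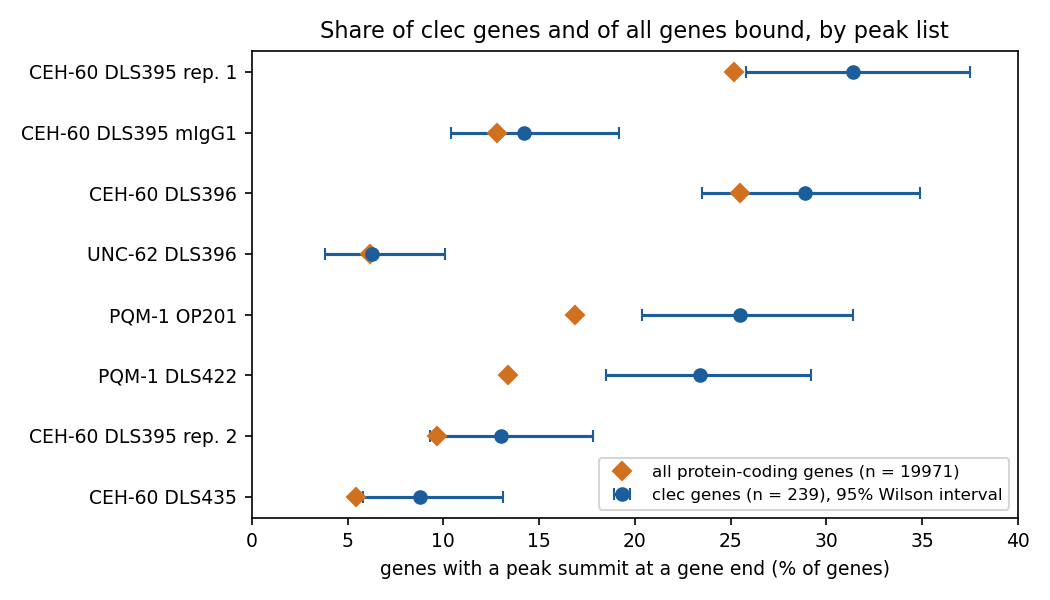
Share of genes with a peak summit at a gene end (x axis, % of genes) in each of the 8 peak lists (y axis), for clec genes (circles, with 95% Wilson intervals) and for all protein-coding genes (diamonds). The clec circle lies clear of the diamond in both PQM-1 lists, at 25.5% against 16.9% and at 23.4% against 13.4%, and on top of it for UNC-62.

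Peaks at clec genes were of ordinary strength in most lists. The median fold of the 89 replicate 1 peaks at clec genes was 4.65 (range 2.00 to 16.4), and that of all replicate 1 peaks at gene ends was 4.56. In the UNC-62 list the 15 clec peaks had a median of 4.89, against 4.22 for gene-end peaks, and in OP201 the 68 clec peaks had 2.52 against 2.45. Of the 30 clec peaks of replicate 2, 9 lay in the top 10% of its nuclear peaks by fold (30.0%), and in replicate 1 that held for 10 of 89 (11.2%). The strongest peak of a bound clec gene mostly had its summit outside the gene, for 67 of 75 genes in replicate 1 and for all 15 in the UNC-62 list. The window itself favours this, as it reaches 1000 bp outside and only 200 bp inside, and the share over all bound genes was not counted.

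At least 1 list bound 89 of the 239 clec genes (37.2%), where 29.8% of all genes were bound in at least 1, and 150 clec genes were bound in none. Of those 150, 10 had a summit deeper inside the gene in at least 1 list. The matching share over all unbound genes was not counted. Bound in every list were 10 clec genes (4.18%), beside 3.01% of all genes. Of the 89 bound members, 59 were bound by CEH-60 and PQM-1 (66.3%), 20 by CEH-60 without PQM-1 (22.5%) and 10 by PQM-1 without CEH-60 (11.2%). Over all bound genes these shares were 55.8%, 38.7% and 5.44%. UNC-62 bound no clec gene that CEH-60 did not, and all 15 of its members were bound by all 3 factors. Of all 1235 genes bound by UNC-62, 1092 were bound by all 3. Bound in 1 list only were 16 members (6.69%), beside 4.62% of all genes: 6 in replicate 1, 3 in DLS396, 3 in OP201 and 4 in DLS422.

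**Figure D2:**
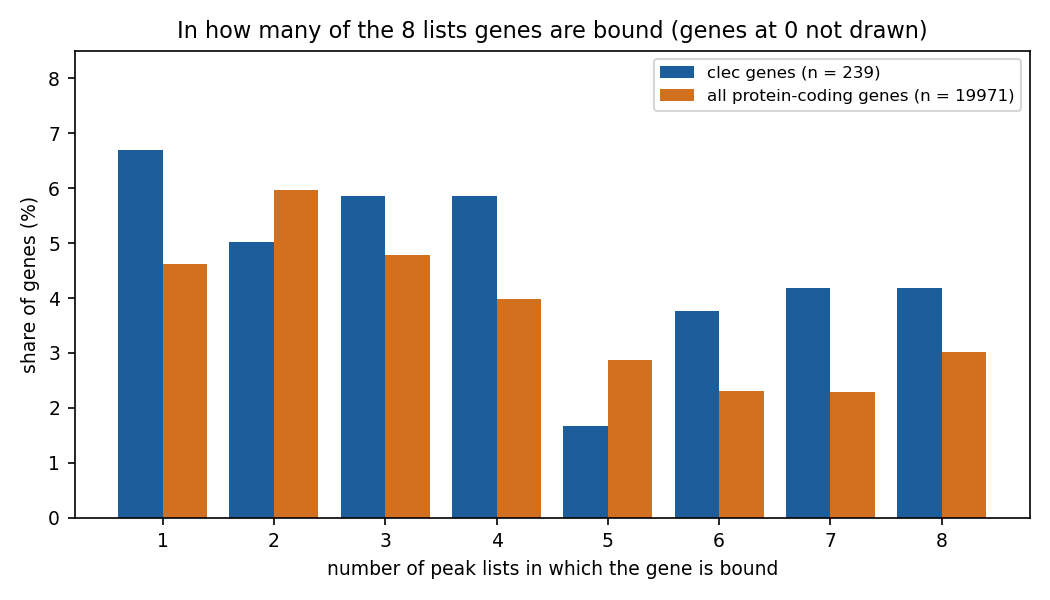
Share of genes (y axis, %) bound in 1 to 8 of the peak lists (x axis), for clec genes and for all protein-coding genes. At 8 lists the bars stand at 4.18% for clec genes and 3.01% for all genes, and genes bound in no list (62.8% and 70.2%) are not drawn.

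By the strongest peak of each gene, the 10 clec genes bound in every list lay at 9 peaks. These were at clec-62 with clec-63, clec-83, clec-85, clec-72, clec-184, clec-186, clec-41, clec-232 and clec-265. In replicate 1 their folds ran from 8.52 to 15.5, with ranks of 127 to 1436 among 9008 nuclear peaks. The summits of these peaks all lay outside the gene, where most of the window lies, at 36 to 849 bp from its end in replicate 1. Summits of the other 7 lists lay 1 to 69 bp from that of replicate 1, and the median distance was 21 bp for UNC-62, 15.5 bp for PQM-1 in OP201 and 19.5 bp for PQM-1 in DLS422. The 3 factors thus had their summits within 69 bp of the CEH-60 summit at each of the 9 peaks. These 9 leave out a weaker peak by the other end of clec-186, which was also in every list. Its summit lay at IV 12869574 in replicate 1, but at 12869464 in OP201 and 12869737 in DLS435, so not all lay within 69 bp. In the remaining lists it lay from 12869508 (DLS422) to 12869558 (replicate 2).

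**Figure D3:**
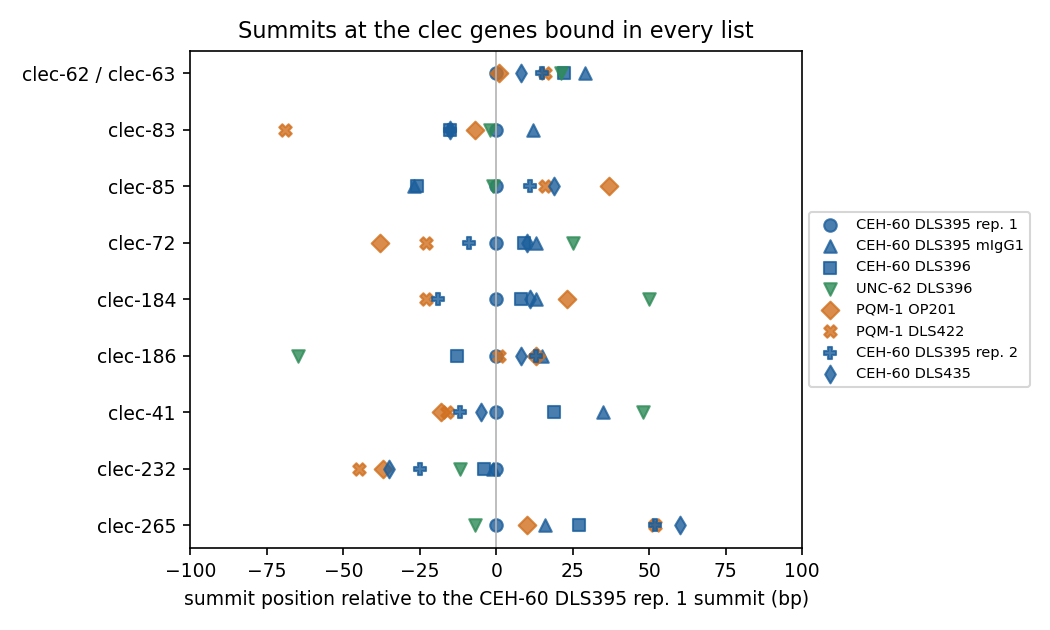
Position of the summit in each list relative to the summit of CEH-60 replicate 1 (x axis, bp; markers stand for the lists and colours for the factors) at the clec genes bound in every list (y axis). Only the strongest gene-end peak of each gene is drawn. All points lie within 69 bp of 0, with the largest offsets for PQM-1 in DLS422 at clec-83 and for UNC-62 at clec-186 (65 bp).

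clec-72 held the strongest clec peak of both CEH-60 lists of short crosslinking, at IV 3944356 to 3944958 in replicate 2. Its fold was 14.7 in replicate 1, 7.52 with mIgG1, 19.4 in DLS396, 4.24 in the UNC-62 list, 3.62 and 3.47 for PQM-1 in OP201 and DLS422, 4.90 in replicate 2 and 3.61 in DLS435. It ranked 4 among the 3430 nuclear peaks of replicate 2 and 19 among the 2048 of DLS435, while its UNC-62 peak ranked 1028 of 2051. The peak also lay at the end of Y46C8AL.11.

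clec-186 had a peak at IV 12865782 to 12866525 in replicate 1. The fold was 15.1 in replicate 1, 6.87 with mIgG1, 20.04 in DLS396, 4.94 in the UNC-62 list, 4.30 in OP201, 3.73 in DLS422, 3.83 in replicate 2 and 3.41 in DLS435. It was the strongest clec peak of OP201, at rank 83 of 6001. The replicate 1 peak also lay at gcy-18, a receptor guanylate cyclase gene known from thermosensory neurons, so it does not separate the 2 genes. A weaker peak lay by the other end of clec-186 in every list. Its fold was 12.05 in replicate 1, 5.02 with mIgG1, 16.18 in DLS396 and 4.35 in the UNC-62 list. It was 3.18 in OP201, 2.87 in DLS422, 1.86 in replicate 2 and 2.27 in DLS435. In OP201 this weaker peak also lay at clec-187, with no protein-coding gene of another family in reach.

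clec-62 and clec-63 share the peak between them, at II 12894469 to 12895693 in replicate 1. Its fold was 11.2 in replicate 1, 6.33 with mIgG1, 13.96 in DLS396, 4.98 in the UNC-62 list, 3.90 in OP201, 3.56 in DLS422, 3.30 in replicate 2 and 2.66 in DLS435. No other protein-coding gene lay within reach of it, and its summits spanned 29 bp across the 8 lists. In both PQM-1 lists this peak was among the 5 strongest at clec genes.

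clec-232 and clec-265 were the strongest members of the UNC-62 list after clec-179. At clec-232 (V 15978092 to 15978786 in replicate 1) the fold was 15.5 in replicate 1, 11.5 with mIgG1, 22.4 in DLS396, 7.67 in the UNC-62 list, 2.66 in OP201, 2.16 in DLS422, 3.26 in replicate 2 and 2.34 in DLS435. At clec-265 (X 3031414 to 3031911), 1 of the 3 members on the X chromosome, it was 12.3, 6.11, 16.8, 6.52, 4.22, 3.50, 3.64 and 2.54 in the same order of lists. The 2 genes differed in where PQM-1 ranked them: clec-265 stood at rank 102 of 6001 in OP201 and clec-232 at rank 2034. The clec-232 peak also lay at oac-20, an O-acyltransferase homologue, and the clec-265 peak at no other protein-coding gene.

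clec-184 had a peak by the infection response gene irg-4, at IV 12435393 to 12435833 in replicate 1. The fold there was 8.52 in replicate 1, 4.14 with mIgG1, 10.6 in DLS396, 3.32 in the UNC-62 list, 4.22 in OP201, 4.37 in DLS422, 3.64 in replicate 2 and 3.14 in DLS435. Its rank was 100 of 6001 in OP201 and 50 of 5020 in DLS422, but 1436 of 9008 in replicate 1. clec-41, which has been linked to defence against Bacillus thuringiensis, was similar in kind (V 13137908 to 13138341): rank 206 in OP201 and 306 in DLS422, and 1421 in replicate 1. The peak also lay at dhc-3, a dynein heavy chain gene, in all 8 lists. Its fold was 8.55 in replicate 1, 3.91 with mIgG1, 9.94 in DLS396, 4.71 in the UNC-62 list, 3.92 in OP201, 3.50 in DLS422, 2.25 in replicate 2 and 2.44 in DLS435.

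clec-83 and clec-85 lie close together on chromosome IV and were weaker within the PQM-1 lists. clec-85, which depends on the p38 kinase pathway in animals infected with Pseudomonas aeruginosa, had a peak at IV 2855338 to 2855844 in replicate 1. Its fold was 10.5 in replicate 1, 4.91 with mIgG1, 15.8 in DLS396, 5.50 in the UNC-62 list, 2.66 in OP201, 2.12 in DLS422, 2.18 in replicate 2 and 1.85 in DLS435. In DLS422 it ranked 3544 of 5020 and in DLS435 1876 of 2048, so it was among the weakest peaks of DLS435. The clec-85 peak also lay at Y54G2A.16 in all 8 lists. The clec-83 peak (IV 2840722 to 2841851) had folds of 11.8, 7.74, 19.2, 4.98, 2.80, 2.28, 2.88 and 2.85 in the same order and was shared with clec-84 in all lists but DLS422, where the summit fell 62 bp away from that of OP201 and out of reach of clec-84.

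A further 10 members (4.18%, beside 2.29% of all genes) were bound in 7 lists: clec-50, clec-51, clec-78, clec-84, clec-162, clec-170, clec-179, clec-218, clec-221 and clec-241. clec-179 had the strongest clec peak in replicate 1 (16.4-fold, IV 7182034 to 7183611), with mIgG1 (15.7), in DLS396 (25.7) and for UNC-62 (12.7), where it ranked 25 of 2051. Its fold was 3.82 in replicate 2, 3.01 in DLS435 and 2.93 in OP201, where it ranked 1356 of 6001. It was not bound in DLS422, and the nearest summit there lay 2450 bp away. The clec-179 peak also lay at the end of cest-10, a carboxylesterase gene.

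clec-78 and clec-170 were bound by CEH-60 and PQM-1 in every list but not by UNC-62. At clec-78 (IV 3988578 to 3989070 in replicate 1) the fold was 13.4 in replicate 1, 7.42 with mIgG1, 17.7 in DLS396, 3.38 in OP201, 3.67 in DLS422, 3.32 in replicate 2 and 2.64 in DLS435. The nearest UNC-62 summit lay 44127 bp away. At clec-170 the fold was 7.05 in replicate 1, 3.60 with mIgG1, 9.83 in DLS396, 3.80 in OP201, 5.16 in DLS422, 3.31 in replicate 2 and 2.58 in DLS435. These folds are not all from 1 place. In replicate 1, mIgG1, DLS396 and DLS435 the strongest summit lay inside the gene (IV 1266927 in replicate 1), with no other gene in reach. In replicate 2, OP201 and DLS422 it lay outside (IV 1266292 in replicate 2), and also at F38A1.13. The DLS422 peak of clec-170 (IV 1265970 to 1267221) ranked 6 of 5020, the highest rank of any clec peak in the PQM-1 lists. Together with clec-50, clec-51, clec-84, clec-179, clec-241 and the 10 genes above, clec-78 and clec-170 made 17 clec genes bound in every CEH-60 list (7.11%), beside 4.58% of all genes.

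clec-50 had folds of 8.76 in replicate 1, 4.58 with mIgG1, 8.25 in DLS396, 3.52 in OP201, 3.05 in DLS422, 2.80 in replicate 2 and 2.99 in DLS435, at 1 site (V 19755242 to 19755701 in replicate 1) with no other protein-coding gene in reach. At clec-218 the strongest peak was at V 8307545 to 8308063 in OP201 (3.10), and in DLS422 a neighbouring peak at V 8307012 to 8307274 (2.40) stood above the one at that place (2.25). At clec-221 the strongest peaks of mIgG1, DLS396 and UNC-62 lay by one end (V 10951294 to 10952954 in DLS396, 14.9-fold) and those of replicates 1 and 2 and of PQM-1 by the other (V 10954850 to 10955252 in replicate 1, 4.41-fold). DLS396 had a weaker peak by the second end as well (6.31).

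**Figure D4:**
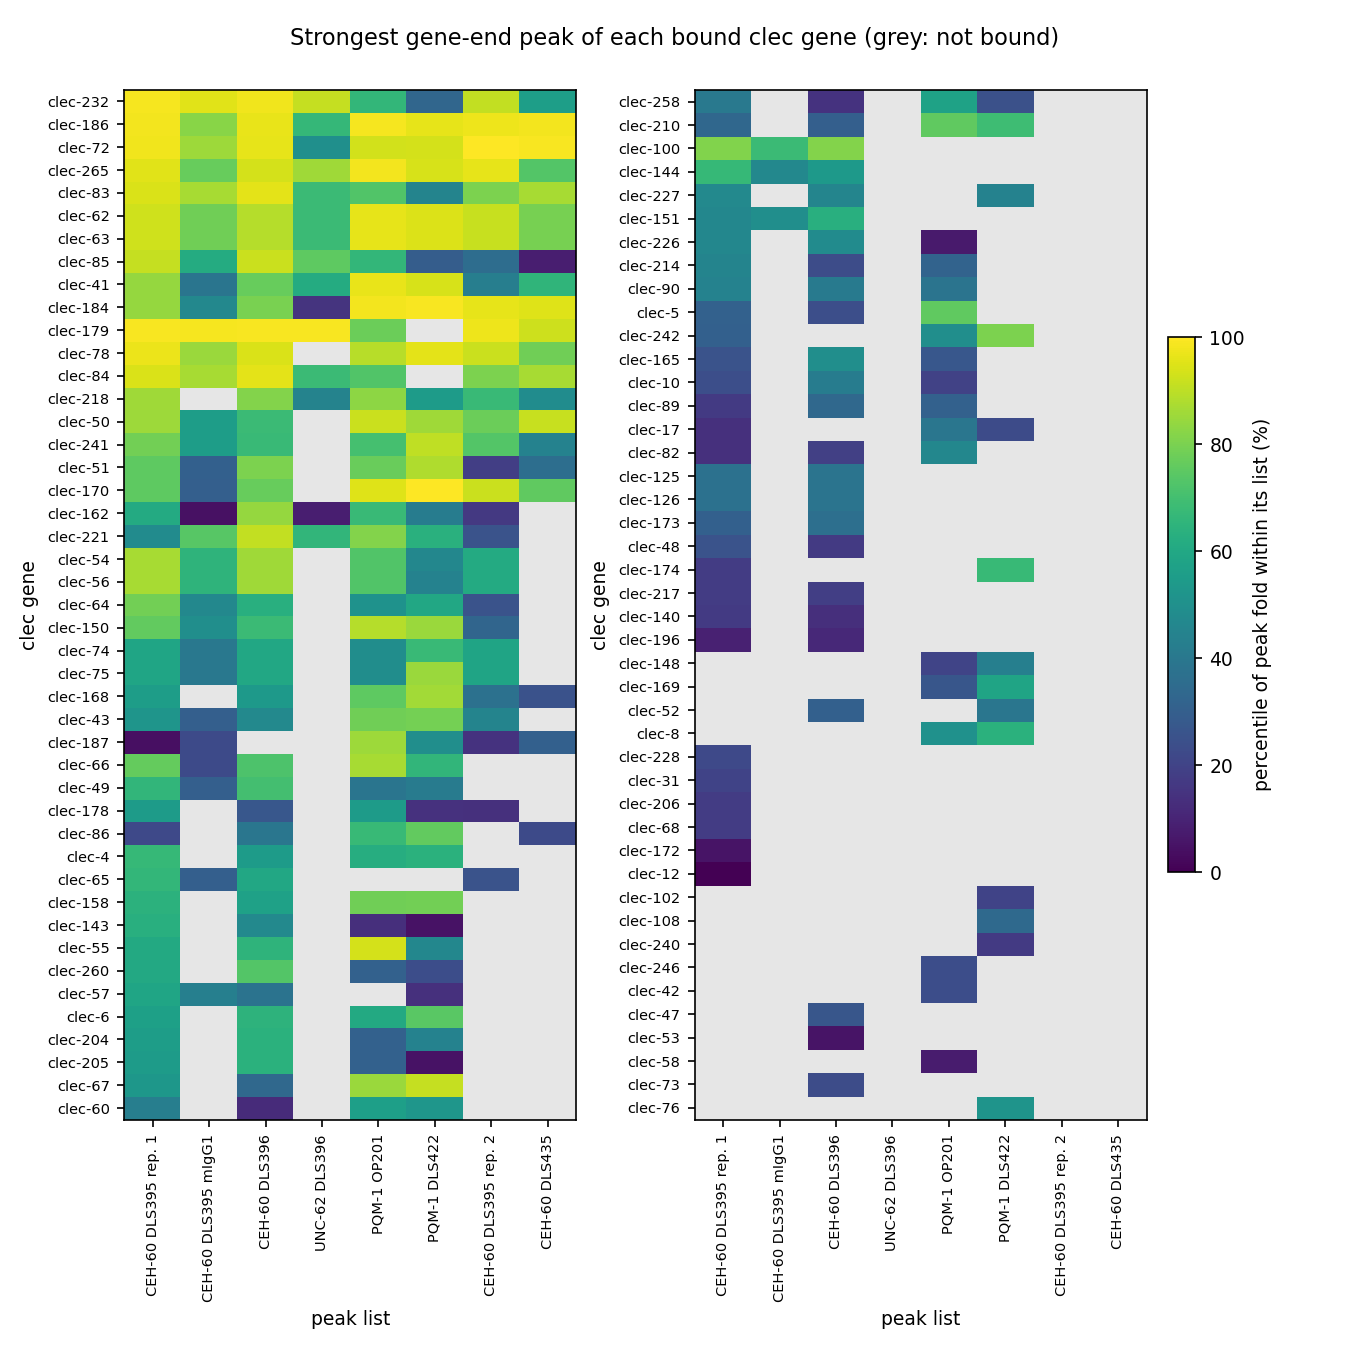
Percentile of fold (colour, %, within each list) of the strongest gene-end peak of each of the 89 bound clec genes (rows, ordered by number of lists and then by replicate 1 fold) in the 8 lists (columns). Grey marks genes that were not bound; the 10 genes bound in every list fill the top of the left panel, and the members at the foot of the right panel were bound in 1 list each.

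The 2 CEH-60 libraries made with 3F10 from DLS395 bound 31 clec genes in common, where 9.27% of all genes were bound in both. These were all 31 of replicate 2 and 41.3% of the 75 of replicate 1. Over all genes the corresponding shares were 96.0% and 36.8%. The shared members had a median replicate 1 fold of 8.55. Those of replicate 1 alone were led by clec-100 (7.94), clec-66 (7.19), clec-4 and clec-144 (6.09 each) and clec-49 (5.95). For clec-100 the nearest replicate 2 summit was 309824 bp away. All 34 clec genes of the mIgG1 list were also bound with 3F10 in replicate 1, as were 96.4% of all genes of the mIgG1 list. Bound in both were 12.3% of all genes. Members with 3F10 alone were led by clec-218 (8.93), clec-4 (6.09), clec-158 (5.76), clec-143 (5.68) and clec-55 (5.41).

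In DLS396, which carries the gaIs285 transgene, CEH-60 bound 65 of the 75 members of replicate 1 (86.7%; 23.1% of all genes were bound in both lists), and over all genes that share was 91.6%. The 10 members of replicate 1 alone had folds of 2.00 to 3.42, with clec-242 (3.42), clec-228 (3.08) and clec-31 (3.01) at the top. The 4 members of DLS396 alone were clec-52 (4.29), clec-47 (4.02), clec-73 (3.81) and clec-53 (2.90). All of these were weak peaks within their lists, and the strongest among them, clec-52, ranked 6219 of 8991.

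All 15 UNC-62 members were bound by CEH-60 in the same strain, as were 96.6% of all UNC-62 genes. Bound by both were 5.97% of all genes. The 15 made up 21.7% of the 69 CEH-60 members there. Over all genes UNC-62 was found at 23.4% of CEH-60 genes. The 15 had a median CEH-60 fold of 15.8 (range 9.94 to 25.7), and the 54 without UNC-62 had 5.55 (2.90 to 17.7). Over all genes the medians were 13.6 with UNC-62 and 5.19 without. The strongest CEH-60 members without UNC-62 were clec-78 (17.7), clec-54 and clec-56, which share a peak (12.5), clec-100 (11.0) and clec-51 (10.7). UNC-62 was found at 15 of the 52 CEH-60 members that PQM-1 bound in OP201 and at 0 of the 17 that it did not, and over all genes at 34.9% and 6.92%. A count of 0 among 17 genes allows a share of up to 17.6%, which includes 6.92%.

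The PQM-1 lists of OP201 and of DLS422, which carries the ceh-60(ok1485) allele, bound 48 clec genes in common, where 12.1% of all genes were bound in both. That was 78.7% of the 61 members of OP201 and 85.7% of the 56 of DLS422, and over all genes 71.3% and 89.8%. Of the 68 OP201 peaks at clec genes, 55 overlapped a DLS422 peak by 1 bp or more (80.9%), and of all OP201 gene-end peaks 68.4% did. In the other direction, 52 of the 67 DLS422 peaks at clec genes overlapped an OP201 peak (77.6%), beside 2116 of all 2460 DLS422 gene-end peaks. The 13 members of OP201 alone were led by clec-179 (2.93), clec-5 (2.87), clec-84 (2.80), clec-82 (2.32) and clec-90 (2.22). At clec-5, clec-84 and clec-90 a DLS422 peak did overlap the OP201 peak, with its summit out of reach of the gene end, and the other 10 had no DLS422 peak over their strongest OP201 peak. The 8 members of DLS422 alone were led by clec-174 (2.60), clec-76 (2.36), clec-227 (2.28), clec-52 (2.22) and clec-108 (2.18).

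The OP201 members not found in DLS422 had the lower folds. Their median OP201 fold was 2.15, and that of the 48 found in both lists was 2.80, with 2.18 and 2.77 over all genes. Of the 30 OP201 members that CEH-60 also bound in replicate 2, 28 were found in DLS422 (93.3%), and of the 31 that it did not, 20 were (64.5%). Over all genes these shares were 87.8% and 55.1%. The 30 members had stronger OP201 peaks too, with a median fold of 2.95 against 2.23, and the part of peak strength in the split was not tested.

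CEH-60 in replicate 2 and in DLS435, which carries the pqm-1(ok485) allele, bound 20 clec genes in common, where 5.15% of all genes were bound in both. They were 64.5% of the 31 members of replicate 2, where the share over all genes was 53.3%, and 95.2% of the 21 of DLS435, where it was 94.6%. Of the 30 replicate 2 peaks at clec genes, 22 overlapped a DLS435 peak (73.3%), beside 51.0% of all gene-end peaks. The 11 members without a DLS435 call were led by clec-54 with clec-56 (2.50) and clec-74 with clec-75 (2.45), followed by clec-43 (2.28). At clec-162, also among the 11, a DLS435 peak overlapped with its summit 37 bp away, out of reach of the gene end. Their median fold in replicate 2 was 2.15, and that of the 20 found was 3.07. clec-86 was the single member of DLS435 alone (2.02). In replicate 2, 30 of 31 members were also bound by PQM-1 in OP201 (96.8%), the exception being clec-65, where 86.7% of all replicate 2 genes were and 8.37% of all genes were bound in both lists. In these pairs the strain and the library change together, so a lost call cannot be told apart from a library that recovered less.

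**Figure D5:**
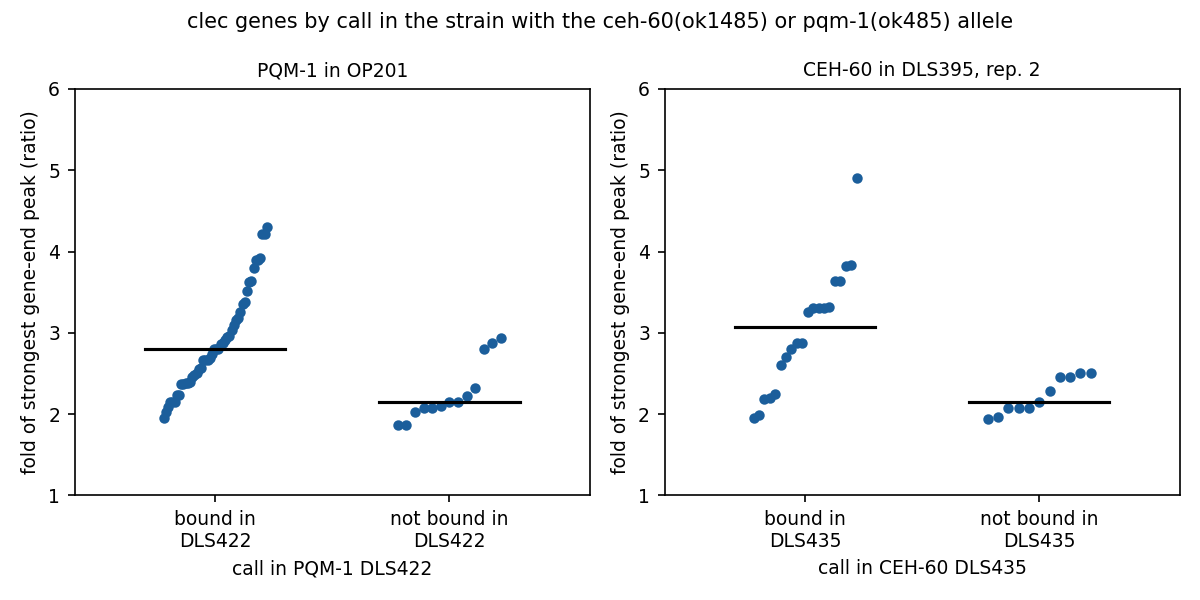
Fold (y axis, ratio) of the strongest gene-end peak of each clec gene bound by PQM-1 in OP201 (left panel) and by CEH-60 in DLS395 replicate 2 (right panel), split on the x axis by whether the gene was also bound in the strain with the ceh-60(ok1485) allele (DLS422) or the pqm-1(ok485) allele (DLS435). Points are genes, spread sideways in order of fold, and lines are medians, at 2.80 and 2.15 on the left and 3.07 and 2.15 on the right.

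Infection-linked members were looked at as a list of 17 clec genes drawn up from background knowledge, all of which were found in the table. The link to infection is less sure for clec-17, clec-63, clec-65 and clec-66, each of which was bound in at least 1 list. CEH-60 bound 11 of them in replicate 1, 6 with mIgG1, 11 in DLS396, 4 in replicate 2 and 4 in DLS435. As shares of the 17 these were 64.7%, 35.3%, 64.7%, 23.5% and 23.5%, where the shares of all clec genes were 31.4%, 14.2%, 28.9%, 13.0% and 8.79%. Over all protein-coding genes they were 25.2%, 12.8%, 25.5%, 9.66% and 5.44%. The 17 were chosen with earlier results of these data known, so their shares are no independent test. UNC-62 bound 3 (17.6%), beside 6.28% of all clec genes and 6.18% of all genes. PQM-1 bound 11 in OP201 and 11 in DLS422 (64.7% in each), beside 25.5% and 23.4% of clec genes and 16.9% and 13.4% of all genes. Bound in every list were 3 of the 17 (17.6%), clec-63, clec-85 and clec-41, beside 4.18% of all clec genes and 3.01% of all genes. In all, 13 were bound in at least 1 list (76.5%), beside 37.2% of all clec genes and 29.8% of all genes. The 4 without a call were clec-29, clec-39, clec-70 and clec-71, of which clec-39 is known for a role in defence against Serratia marcescens.

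clec-67, a p38-dependent member, was bound by PQM-1 more strongly within its lists than by CEH-60. Its fold was 3.16 in OP201 and 3.31 in DLS422, at ranks 910 of 6001 and 446 of 5020. In replicate 1 it was 4.72 and in DLS396 4.44, at ranks 4244 of 9008 and 5970 of 8991, and the other 4 lists had no call. The peak lay at IV 3921947 to 3922227 in replicate 1. clec-60, which responds to Microbacterium nematophilum and Staphylococcus aureus, had the same set of lists, with folds of 4.04 in replicate 1, 3.28 in DLS396, 2.48 in OP201 and 2.37 in DLS422. clec-4 did too, with 6.09, 6.34, 2.57 and 2.54. Its OP201 fold was from the other end (II 12581011 to 12581263) than those of the 3 other lists, and OP201 had 2.38 at their end.

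clec-66 was bound in replicate 1 (7.19), with mIgG1 (3.38), in DLS396 (8.88) and by PQM-1 in OP201 (3.26) and DLS422 (2.57). clec-49, which has a role in defence against Serratia marcescens, was bound in the same 5 lists, with folds of 5.95, 3.60, 8.56, 2.23 and 2.25. clec-65 was the only one of the bound 13 seen in several CEH-60 lists and in neither PQM-1 list, with 6.02 in replicate 1, 3.60 with mIgG1, 6.98 in DLS396 and 2.07 in replicate 2. clec-86 had 3.08 in replicate 1, 4.86 in DLS396, 2.67 in OP201, 2.77 in DLS422 and 2.02 in DLS435. Its PQM-1 folds were from one end (X 7139585 to 7139862 in OP201) and its CEH-60 folds from the other (X 7140881 to 7141219 in replicate 1). By the second end PQM-1 had 2.34 in OP201 and 2.46 in DLS422, and by the first replicate 1 had 2.46. clec-17 had 2.81 in replicate 1, 2.23 in OP201 and 2.06 in DLS422, clec-52 had 4.29 in DLS396 and 2.22 in DLS422, and clec-42 had 2.07 in OP201 alone.

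Regulators of infection responses, such as the p38 kinase pathway, made a second list drawn up in the same way. Of these 12 genes, CEH-60 bound 9 in replicate 1, 7 with mIgG1, 7 in DLS396 and 7 in replicate 2, where 25.2%, 12.8%, 25.5% and 9.66% of all genes were bound. UNC-62 bound 6, where 6.18% of all genes were, and PQM-1 bound 8 in OP201 and 6 in DLS422, beside 16.9% and 13.4%. In DLS435, which bound 5.44% of all genes, CEH-60 bound 1 of the 12 (8.33%), elt-2, which encodes an intestinal GATA factor and was bound in every list (13.9-fold in replicate 1). pmk-1, which encodes the p38 kinase, was bound in the 7 lists other than DLS435, with 7.44 in replicate 1 and 3.41 in OP201, and hlh-30, a helix-loop-helix factor, was bound in none.

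Many clec genes lie side by side. Of the 239, 114 had no other clec gene as a neighbour, 52 lay in 26 pairs, and 73 lay in 15 runs of 3 or more with no other protein-coding gene between. Bound in at least 1 list were 44 of the 114 single genes (38.6%), 22 of 52 in pairs (42.3%) and 23 of 73 in longer runs (31.5%), where the share over all genes was 29.8%. In clec-62 to clec-66, in clec-72 to clec-75 and in the run clec-57, clec-227, clec-56, clec-54 and clec-55, every gene was bound in at least 1 list (5 of 5, 4 of 4 and 5 of 5). By contrast, 7 of the 15 runs had none, among them clec-93 to clec-99 (7 genes) and clec-127 to clec-134 (7 genes). The longest run, 13 genes from clec-40 to clec-33, had a single bound gene, clec-31, in replicate 1 alone (3.01-fold). These runs were picked after their values were seen.

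Because neighbours can share a peak, the number of separate loci was smaller than that of genes. How far this holds over all genes was not counted. The 75 members of replicate 1 made up 64 loci once genes joined by a shared peak were merged, the 61 of OP201 made up 51, the 56 of DLS422 made up 48, the 31 of replicate 2 made up 26 and the 15 of UNC-62 made up 13. In replicate 1 the largest groups were clec-62 to clec-65 (4 genes, 4 peaks), clec-227 with clec-56, clec-54 and clec-55 (4 genes, 6 peaks) and clec-82 to clec-84 (3 genes, 4 peaks). In the second of these the peak between clec-56 and clec-54 (V 14476655 to 14477124) had a fold of 9.20 in replicate 1, 5.13 with mIgG1, 12.5 in DLS396, 2.80 in OP201 and 2.50 in replicate 2. In OP201 a peak at clec-55 was stronger (V 14482796 to 14483103, 3.64). In DLS422 the peak between them was weaker (2.11) than those at the far ends of clec-56 (V 14474285 to 14474567, 2.28) and clec-54 (V 14479109 to 14479303, 2.29). In DLS396 clec-73, clec-74 and clec-75 formed a further group of 3. For clec-74 and clec-75 the fold was 5.20 in replicate 1 and 6.98 in DLS396. UNC-62 had 2 shared peaks, at clec-62 with clec-63 and at clec-83 with clec-84.

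Peaks at clec genes also lay at genes of other families. In replicate 1, 43 of the 89 clec peaks (48.3%) were within reach of a protein-coding gene that is no clec gene, and 30 of the 75 members were bound through such peaks alone. In OP201, 27 of 61 members were bound through such peaks alone, and for UNC-62 7 of 15. The matching shares over all gene-end peaks and all bound genes were not counted, so these counts do not set clec genes apart. The binding lists do not say which of the genes a peak belongs to.

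Bound members were unevenly spread over chromosomes. On chromosome IV, 27 of 53 clec genes were bound in at least 1 list (50.9%), beside 27.7% of all its genes, and on chromosome III 7 of 14 (50.0%), beside 30.2%. On chromosome I it was 8 of 36 (22.2%), beside 24.9%. Chromosome II had 16 of 48 (33.3%, beside 28.3%) and chromosome V, with the most members, 29 of 85 (34.1%), beside 1450 of all its 4995 genes. On the X chromosome 2 of 3 were bound, beside 40.6%. In replicate 1 the clec share was 43.4% on chromosome IV and 13.9% on chromosome I, where all genes stood at 23.5% and 19.9%.

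The window of the bound call has members close to its limits. In replicate 1, clec-144 and clec-31 were bound through a single summit 999 and 985 bp outside the gene, and clec-32 and clec-167 were not, with summits at 1166 and 1171 bp. On the inner side, clec-258 and clec-90 were bound with summits 174 and 163 bp inside, and clec-8 and clec-216 were not, at 215 and 252 bp. clec genes lie somewhat closer to their neighbours than other genes, with a median summed distance of 1707 bp to both neighbouring protein-coding genes against 2093 bp over all genes. Within the family, bound members had 1478 bp and unbound members 1900 bp. Over all genes, those bound in at least 1 list had 2035 bp and the others 2118 bp.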

How the data were processed

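ChIP-seq peak lists of 8 immunoprecipitated samples were used as deposited, and the 2 input samples, which had no list in use, were not analysed here. The submitters' processing notes name MACS2, deepTools, Bowtie2 and SAMtools, without versions. Not given in the sources used here are the genome build, the control libraries and the treatment of reads with several matches. Calls at near-identical clec copies are therefore uncertain. Each list belongs to 1 sample. The deposited fold is a ratio at the summit over local background, the deposited −log10 values are those of the p-value and q-value at the summit, and the score deposited by the authors is 10 times the −log10 q-value with its decimals dropped, and was not analysed. Read depth is unknown, and numbers of peaks limit the precision.

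Counts were made in Python 3.11.15 with pandas 2.3.3 and numpy 2.4.6, intervals with scipy 1.17.1 and plots with matplotlib 3.10.9. Summits and gene ends of WBcel235 were compared on the 6 nuclear chromosomes. With genes shifted in steps of 20 bp, the share of summits outside protein-coding genes was highest at shifts of −20 to 20 bp in every list. The bound call was tested on simulated data. No coordinate of the gene table is printed.

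The members, gene lists and naming rule were chosen with earlier results of these data known. Named are members bound in every list, those of highest fold in each list (10 in replicate 1, 5 elsewhere), the 5 highest in 1 list of a pair alone, groups of 3 or more sharing a peak, the infection list and members at the window limits. Others named by their number of lists or by run were chosen after their values were seen. Alternatives were windows of 500 and 2000 bp, whole peaks, a −log10 q of 5 or more, and the 2000 nuclear peaks of highest fold. The planned 5′ end alone was not run, as the table gives no strand.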

Additional observations from a re-analysis of the deposited data

How the results depend on the processing

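Windows of 500 or 2000 bp, whole peaks in place of summits and a −log10 q of 5 or more left all 14 counts within 1.5 times their values. The order against all genes was less stable: at 2000 bp the clec share was below that of all genes for mIgG1 (18.4%, beside 18.8%), CEH-60 in DLS396 (33.9%, beside 34.8%), UNC-62 (7.95%, beside 9.34%) and the genes bound by both factors in DLS396 (7.95%, beside 9.17%). It was also below for UNC-62 at 500 bp (4.18%, beside 4.31%) and with whole peaks (6.69%, beside 6.85%), and with whole peaks for both factors in DLS396 (6.69%, beside 6.82%). In the other counts and settings run the clec share was above. With the 2000 nuclear peaks of highest fold of each list, members bound fell from 75 to 20 in replicate 1, 34 to 17 with mIgG1, 69 to 19 in DLS396, 61 to 31 in OP201 and 56 to 28 in DLS422. The common counts fell from 31 to 17 for both CEH-60 replicates, 48 to 21 for both PQM-1 lists, 10 to 5 for every list and 89 to 42 for at least 1 list, and the other 5 counts stayed within 1.5 times. These lists hold fewer peaks by construction. At this equal length clec shares were 13.0% in OP201 and 11.7% in DLS422, beside 7.34% and 6.77% of all genes, and 8.37% in replicate 1, beside 6.32%. Without replicate 1 or replicate 2, the count bound in both replicates becomes that of the other library, 31 or 75. No paired analysis was possible because the groups compared share fewer than 2 replicate numbers and no result comes from a test. The planned count at the 5′ end alone was not run for lack of strand. Read depth is unknown, so a missing peak is no sign of absent binding.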
